A study of Mus musculus with 2 samples.

Results

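The Sfmbt2 intronic cluster is a tandem array of miRNA genes inside the Polycomb-group gene Sfmbt2. Its members were taken as the annotated miRNA genes that lie wholly within the span of Sfmbt2 and on its strand, whether or not they had reads. By GENCODE M21 (mm10), 119 of the 2202 miRNA genes of the tables met this rule. The symbols place 5 of them in the miR-297 subfamily, 23 in miR-466, 14 in miR-467 and 29 in miR-669. The other 48 carry Gm symbols, which name no subfamily.

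The reads came from adrenal glands of female B6CASTF1/J mice aged 25 days, a hybrid of the C57BL/6J and CAST strains. The labels give 1 group with no treatment, and 2 libraries of total RNA below 30 nucleotides, here library 1 and library 2 after their biological replicate numbers. The sample descriptions carry different animal numbers, while the donor identifier is the same for both. Differences between the libraries therefore hold those of dissection, library preparation and sequencing as well as those of animals, and the p-values below measure only counting error between these 2 libraries.

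A miRNA gene is transcribed as a hairpin, from which a mature RNA is cut and loaded into an Argonaute protein. The loaded RNA pairs with messenger RNAs mainly through its seed, bases 2 to 8 counted from the 5′ end, and lowers their stability and translation. Sfmbt2 is imprinted and expressed from the paternal chromosome in extraembryonic tissue, and its intronic miRNAs are best known for their part in placental growth. The tables do not separate reads by parental chromosome.

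The sequences of these subfamilies are repetitive, as their genes elsewhere in the genome show. Of the 10 such genes outside Sfmbt2, 8 have a mature sequence in RefSeq (GRCm38.p6), and 4 are printed here to show the alternation of purines and pyrimidines typical of these subfamilies. Capitals mark the seed.
mmu-miR-467g: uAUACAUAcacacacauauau
mmu-miR-466i-3p: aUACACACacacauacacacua
mmu-miR-466j: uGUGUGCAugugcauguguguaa
mmu-miR-669n: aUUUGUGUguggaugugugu
The 4 lie at chr5:34732872-34732892 on the minus strand, chr13:17747552-17747573 on the plus strand, chr10:60960802-60960824 on the plus strand and chr3:115979905-115979924 on the plus strand. In miR-467g every step from one base to the next changes between purine and pyrimidine, and in miR-669n 78.9% of steps do. The letters of each seed were searched anywhere in the hairpins, on the strand of the gene only, and matches of different seeds can overlap. AUACAUA, the miR-467g seed, was found in 78 of the 119 members (65.5%) and in 3.12% of all other miRNA genes. UACACAC, the miR-466i-3p seed, was in 60 members (50.4%) against 5.76%. GUGUGCA of miR-466j was in 62 (52.1%) against 2.11%, and UUUGUGU of miR-669n in 10 (8.40%) against 2.26%. Of the seeds of the other 4 mature sequences, GUGUGUG of miR-466k was in 50 members (42.0%) against 7.68%, UGCACAC of miR-466q in 30 (25.2%) against 1.34%, and UAUACAC of miR-467f in 27 (22.7%) against 4.13%. UAAGUGU of miR-467h was in 1 member (0.84%) against 0.62%, about the same share. None of the 8 mature sequences as a whole was in a member. The member hairpins themselves alternated at a median of 82.6% of their steps, against 44.0% over the other miRNA genes. These matches describe letters in the hairpins and do not show which mature RNA is made. Copies of the same sequence are counted as separate genes. A hairpin identical to that of another miRNA gene was found for 47 of the 119 members and 197 of the 2083 other miRNA genes.

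All 119 members lie in a single intron of 62.5 kb (chromosome 2, bases 10461473 to 10523944), and none overlaps an annotated Sfmbt2 exon. It is intron 10 of transcript Sfmbt2-201 and intron 11 of Sfmbt2-205, each with 22 introns. The first hairpin begins 94.8 kb after the start of Sfmbt2, the hairpins are 73 to 127 bases long, and the array covers 53.0 kb.

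Library 1 held 2244073 reads and library 2 held 3912280 reads on the strand of miRNA genes, the library size for normalised read counts (CPM). Tissue markers were present at unequal levels. The neuroendocrine markers summed to 42237 CPM in library 1 and 43382 CPM in library 2. Most of this was Mir375, with 37574 and 36561 CPM, and the other 5 markers of the list were each higher in library 2, among them Mir7b with 3921 and 5543 CPM. The endothelial marker Mir126a had 53762.5 and 121007 CPM. The red blood cell markers Mir451a and Mir144 summed to 633 and 25693 CPM, of which Mir451a had 480 and 24242 CPM. The hepatocyte marker Mir122 had 5185 and 491 CPM. The part of these differences in the ratios of the cluster members was not tested. In RNA of a whole gland, fewer cells of a type and less RNA per cell cannot be told apart.

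A small set of members carried the cluster's reads that mapped to 1 place. Library 1 had 1896 reads on the 119 genes, 0.0845% of its miRNA reads (95% Wilson interval 0.0808 to 0.0884%). Library 2 had 4048, or 0.103% (0.1003 to 0.107%). At least 1 read in either library was counted for 10 members (8.40%), against 34.1% of all miRNA genes. At least 10 reads in each library, called detected here, were counted for 6 members, against 15.3% of all miRNA genes. These 6, Mir467d, Mir467e, Mir669c, Mir669o, Mir467c and Mir669l, held 99.1% of the cluster's reads in library 1 and 99.5% in library 2. Of the rest, 109 had no read in either library. For a single gene a count of 0 allows up to 3 reads, which is 1.34 CPM in library 1 and 0.767 CPM in library 2. This limit, and the shares and counts above, hold for reads mapped to 1 place only. In 54 members every stretch of 20 bases of the hairpin was also held by another miRNA gene. Where 50% or more of such stretches were not shared, 20% of the members and 21.5% of the other miRNA genes were detected. No member had a read on the opposite strand.

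**Figure D1:**
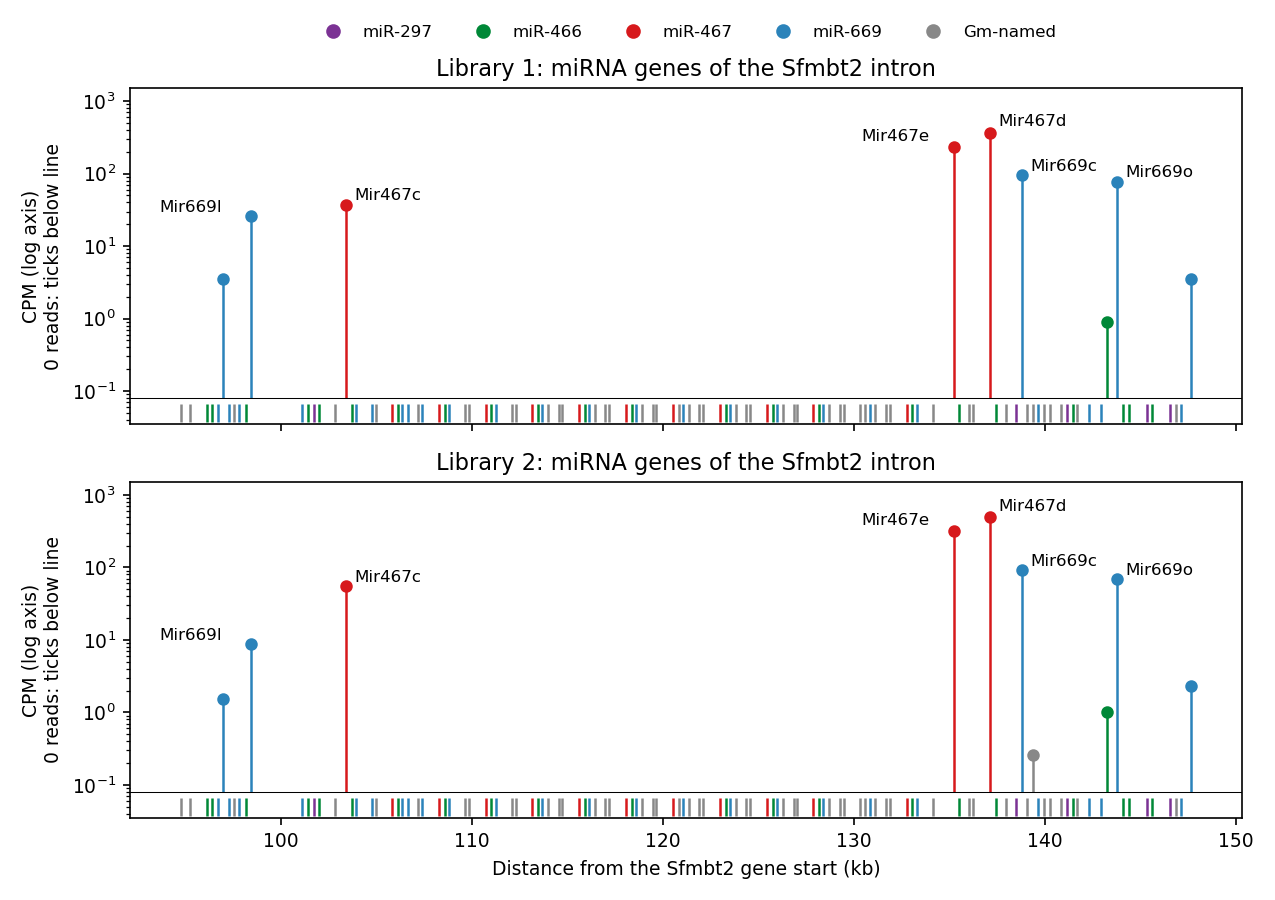
Level of each of the 119 members in CPM (log axis) against its distance in kb from the start of Sfmbt2, with library 1 above and library 2 below and colours by subfamily. Points are members with reads and ticks under the line are members with 0 reads in that library; the unlabelled points, from left to right, are Mir669e, Gm25263 (library 2 only), Mir466n and Mir669h, and the 72 members between Mir467c and Mir467e have no reads.

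By reads mapped to 1 place, the miR-467 subfamily led the cluster with 3 of its 14 genes. Mir467d had 828 reads in library 1 and 1913 in library 2, a level of 429 ± 84.9 CPM (SD, n = 2). Among the members it had the most reads mapped to 1 place in both libraries. By reads it ranked 119 among all miRNA genes in library 1 and 108 in library 2. Mir467e, whose hairpin differs from that of Mir467d by 7 edits, had 517 and 1236 reads, or 273 ± 60.5 CPM (SD, n = 2). Mir467c had 84 and 215 reads, or 46.2 ± 12.4 CPM (SD, n = 2). The other 11 genes, Mir467a-1 to Mir467a-10 and Mir467b, had no reads. Mir467d and Mir467e are neighbours among the members with reads, at bases 10507630 to 10507714 and 10505721 to 10505807 of chromosome 2, and Mir467c lies upstream at bases 10473931 to 10474027.

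The miR-669 subfamily came second by reads mapped to 1 place, with 5 of 29 genes. Mir669c (chromosome 2, bases 10509296 to 10509404) had 216 reads in library 1 and 363 in library 2, or 94.5 ± 2.45 CPM (SD, n = 2). Mir669o (bases 10514300 to 10514395) had 174 and 267 reads, or 72.9 ± 6.57 CPM (SD, n = 2). These levels were close in both libraries. Mir669l (bases 10468971 to 10469068), near the upstream end of the array, had 59 and 34 reads, or 17.5 ± 12.4 CPM (SD, n = 2), and was the detected member with the lowest level. Mir669e had 8 and 6 reads and Mir669h 8 and 9, too few for detection.

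The remaining groups were nearly without reads mapped to 1 place. Of 23 miR-466 genes only Mir466n had any, with 2 in library 1 and 4 in library 2, and of 48 Gm-named genes only Gm25263, with 0 and 1. None of the 5 miR-297 genes had a read. By edit distance between hairpins, the nearest named member was a miR-669 gene for 43 of the 48 Gm-named genes, at a median of 6 edits and up to 31. The 10 genes of these subfamilies outside Sfmbt2 also had no reads. They are Mir297-1, Mir466f-4, Mir466i, Mir466j, Mir466k, Mir466q, Mir467f, Mir467g, Mir467h and Mir669n.

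The order of the detected members was the same in both libraries by reads mapped to 1 place, with Mir467d above Mir467e, Mir669c, Mir669o, Mir467c and Mir669l. Reads of a mature miRNA do not grow with hairpin length, and reads per hairpin base gave this order too. Each step of the order exceeded counting error. The closest was Mir669c over Mir669o, with a ratio of 1.24 (95% interval 1.02 to 1.51) in library 1 and 1.36 (1.16 to 1.59) in library 2. Close too were Mir669o over Mir467c in library 2, with 1.24 (1.04 to 1.49), and Mir467c over Mir669l in library 1, with 1.42 (1.02 to 1.98). The ranges over the libraries lay apart as well. The CPM ranges of Mir669c and Mir669o over the libraries, 92.8 to 96.3 and 68.2 to 77.5, did not overlap. The range of Mir467c, 37.4 to 55.0, also lay apart from that of Mir669o and from that of Mir669l, 8.69 to 26.3. No test of these steps over samples was run. The part of the hairpin that no other miRNA gene shares differed between these members. By windows of 20 bases it ran from 37.9% in Mir467d to 81.1% in Mir669c. Whether the reads left out for sharing would change the order was not tested. Of the 6 detected members, 2 (Mir467d and Mir467e) lay above 156 CPM, the median level of the 337 detected miRNA genes.

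The libraries were then compared gene by gene to see how far the members' levels differed between them. With 2 libraries each gene gives 1 ratio, so whether levels vary together cannot be told. Mir467d, Mir467e and Mir467c were higher in library 2, Mir669l was higher in library 1, and Mir669c and Mir669o did not pass the test. The test was a two-sided exact binomial test on the reads of each gene whose sum over both libraries reached 10, and it compares these libraries and not conditions. Of the 8 members tested, 4 passed at an adjusted p of 0.05, against 58.4% of all 411 genes tested, so the count of members called is near the background. Higher in library 2 were 3 members, against 29.4% of all genes, and higher in library 1 was 1, against 29.0%. Mir467c and Mir669l also had a fold of 1.5 or more, against 31.4% of all genes. Which called members reached this fold depended on the scaling. Mir669l did under each scaling run, while Mir467c did not with library size alone (log2 ratio 0.55). Mir467e reached it with DESeq2 size factors (0.60), and Mir467d (0.66) and Mir467e (0.71) with no filter on low counts.

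Log2 ratios are library 2 over library 1 after TMM scaling, with 95% intervals from counting error. Mir467d had a log2 ratio of 0.49 (0.37 to 0.61; exact binomial test, Benjamini-Hochberg adjusted p = 2.38e-16) and Mir467e 0.54 (0.39 to 0.69; exact binomial test, adjusted p = 1.02e-12). For Mir467c the log2 ratio was 0.63 (0.27 to 1.00; exact binomial test, adjusted p = 0.000929). The 3 miR-467 genes thus had folds of 1.41 to 1.55, and their intervals overlapped. Mir669l went the other way, with a log2 ratio of -1.50 (-2.11 to -0.90; exact binomial test, adjusted p = 2.34e-06), a 2.83-fold higher level in library 1. Mir669c was level, with 0.03 (-0.21 to 0.27; exact binomial test, adjusted p = 0.891), and Mir669o had -0.10 (-0.37 to 0.18; exact binomial test, adjusted p = 0.600). The sign for Mir669c turned with scaling by library size alone, and that for Mir669o with no filter on low counts. Mir669h and Mir669e, with under 10 reads per library, had intervals of -1.89 to 0.78 and -2.58 to 0.37. Over the 8 tested members the median log2 ratio was -0.03 and the median of its absolute value 0.55, beside -0.07 and 0.50 over all 411 genes. edgeR's common biological coefficient of variation between the libraries was 0.384 over the 337 detected genes.

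**Figure D2:**
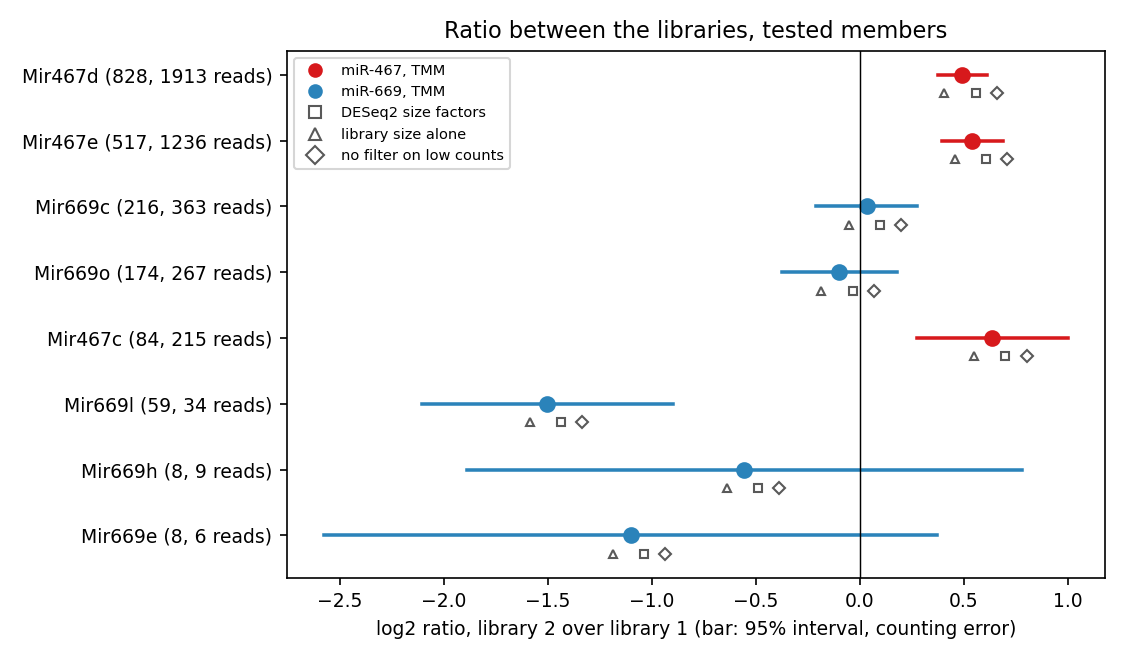
Log2 ratio of library 2 over library 1 (x axis) for the 8 members with 10 or more reads summed (y axis, with reads in library 1 and 2), where filled points and bars are TMM-scaled ratios with 95% counting intervals and open marks are other scalings. The bars of the 3 miR-467 genes lie right of 0, from 0.27 upward, and that of Mir669l lies left of 0, below -0.90.

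Ratios between members of the same library do not depend on the scaling, and they too are of reads mapped to 1 place. Mir467d had 3.83 times the reads of Mir669c in library 1 (95% interval 3.30 to 4.44) and 5.27 times in library 2 (4.71 to 5.89). Mir467e had 2.97 times those of Mir669o in library 1 (2.50 to 3.52) and 4.63 times in library 2 (4.05 to 5.28). The intervals of library 1 and library 2 did not overlap for either pair. Each of these pairs sets a member that passed the test above against a member that did not. The same counts were used, so this is not a separate result. Within the miR-467 subfamily the intervals of the 2 libraries did overlap. Ratios of Mir669c and Mir669o to Mir669l were not computed. Mir467d had 1.602 times the reads of Mir467e in library 1 (1.43 to 1.79) and 1.55 times in library 2 (1.44 to 1.66), and 9.86 times (7.84 to 12.3) and 8.90 times (7.71 to 10.2) those of Mir467c. Among the detected members the pair farthest apart in reads was Mir467d and Mir669l, with 14.0 times (10.7 to 18.1) in library 1 and 56.3 times (39.6 to 77.7) in library 2.

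The subfamilies accordingly took unequal shares of the cluster's reads in the 2 libraries, counted from reads mapped to 1 place only. miR-467 held 75.4% in library 1 (95% Wilson interval 73.4 to 77.3%) and 83.1% in library 2 (81.9 to 84.2%). miR-669 held 24.5% (22.6 to 26.5%) and 16.8% (15.7 to 17.96%). miR-466 held 0.105% and 0.0988%. Mir467d alone held 43.7% and 47.3%, Mir467e 27.3% and 30.5%, Mir669c 11.4% and 8.97%, and Mir669o 9.18% and 6.60%. Mir669l held 3.11% of the cluster's reads in library 1 and 0.840% in library 2. The summed cluster had a log2 ratio of 0.38 (0.30 to 0.46). The sum for miR-467 had 0.52 (0.43 to 0.61) and that for miR-669 -0.17, with an interval from -0.34 to just under 0. No test was run on sums.

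**Figure D3:**
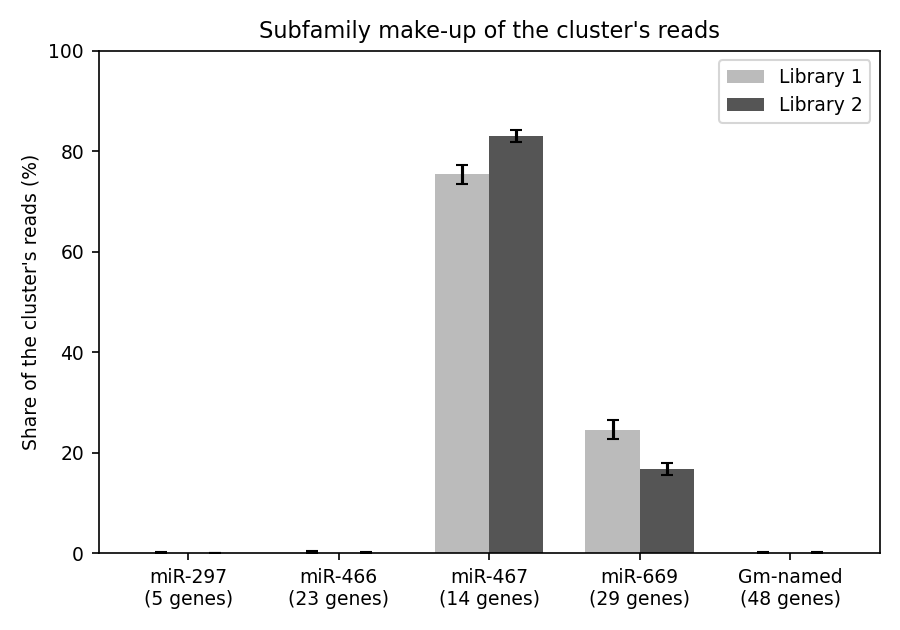
Share of the cluster's reads in percent (y axis, from 0) held by each subfamily (x axis, with its number of genes) in library 1 and library 2, with 95% Wilson intervals as bars. Only reads mapped to 1 place are counted. miR-467 holds 75.4% in library 1 and 83.1% in library 2, and miR-669 holds 24.5 and 16.8%, with intervals that do not overlap.

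The members with reads were set beside how much of each hairpin is shared with other miRNA genes, because the tables count a read for a gene only where it mapped to 1 place. Reads with several mapped places were 28.4% of all reads in library 1 and 27.5% in library 2. How many of them came from this cluster was not measured. Each hairpin was read in windows of 20 bases, and a window was called unique if no other miRNA gene position held it on either strand. Every window was shared in 54 of the 119 members, and none of these 54 had a read. They were 10 of 14 miR-467, 13 of 29 miR-669, 9 of 23 miR-466 and 22 of 48 Gm-named genes. The order and shares of the subfamilies given above leave out reads that these genes share. Of the 247 other miRNA genes with every window shared, 5 had reads (2.02%). The 10 members with reads had unique windows over 37.9 to 95% of the hairpin, from Mir467d at the lower end to Mir669e at the upper. Among members with 50% or more of windows unique, 9 of 25 had reads (36%) and 5 were detected (20%). Over the other miRNA genes of that class, 722 of 1523 had reads (47.4%) and 328 were detected (21.5%). Below 50%, 1 of 94 members had reads, which is Mir467d, and 19 of 560 other genes did (3.39%).

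Among the members with reads, the level had no simple order by the unique share. Mir467d, with the most reads, had 25 unique windows of 66, Mir467e 39 of 68 and Mir669c 73 of 90, while Mir669e had 95 of 100 and 14 reads over both libraries. With 50% or more of their windows unique, 16 members had no reads. Mir466g and Gm22239 had every window unique, and Gm23542 (94.8%) and Mir466h (93.5%) nearly so. These 4 genes, singled out after their values were seen, were listed at 0 in both libraries. Copies of the windows outside annotated miRNA genes were not looked for.

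**Figure D4:**
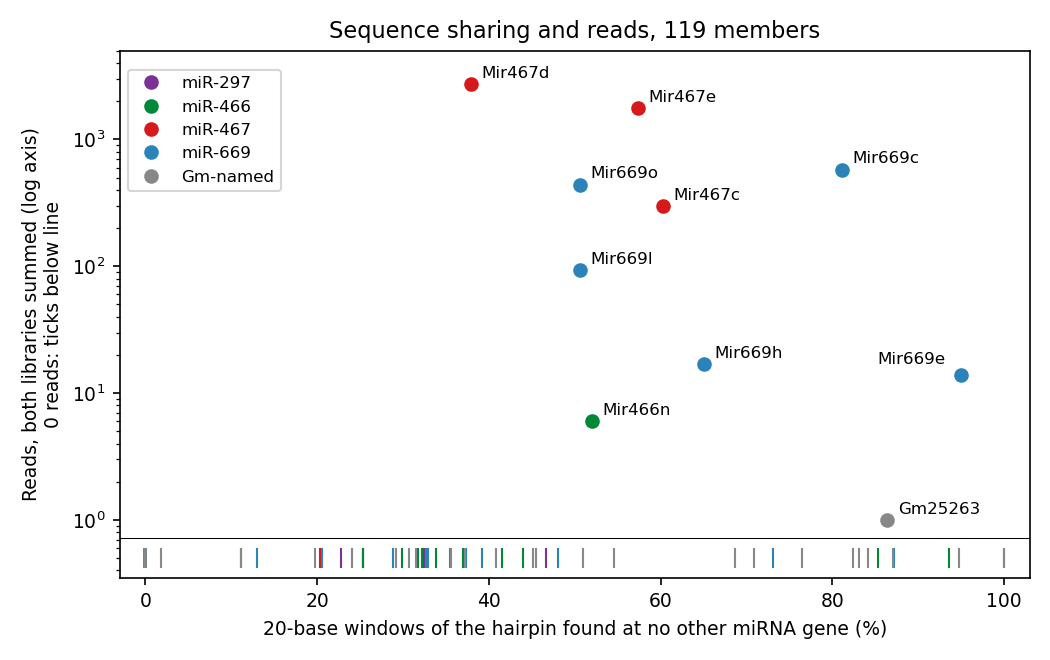
Reads summed over both libraries (y axis, log scale) against the percent of 20-base hairpin windows held by no other miRNA gene (x axis) for the 119 members, coloured by subfamily, with ticks under the line for members with 0 reads. The 10 members with reads lie at 37.9% or above, and the members without reads reach from 0 to 100%.

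Sharing was concentrated in the middle of the array. The longest stretch of consecutive members without a read runs from Mir466b-1 to Gm26398 (chromosome 2, bases 10474219 to 10504773), with 72 genes over 30.6 kb between Mir467c and Mir467e. Of its genes 52 had every window shared and 46 had a hairpin identical to that of another miRNA gene. Outside the stretch, the numbers were 2 and 1 of 47 genes. All 10 members with reads lay there by definition, because the borders of the stretch were set by the reads. The comparison of inside with outside is thus not independent of the reads. The median unique share was 0% inside and 48.0% outside. The stretch holds 11 miR-466, 11 miR-467, 16 miR-669 and 34 Gm-named genes in a repeated order, in which copies of Mir467a follow each other at a median distance of 2.46 kb. Over the whole array, all 10 copies of Mir467a, 11 of the 12 of Mir669a and 6 of the 8 of Mir466b had every window shared. No member with reads had an identical hairpin elsewhere, and their nearest other member differed by 7 to 35 edits, with a median of 17 against 2 for the members without reads. A read wholly within a hairpin that has an identical copy maps to several places and is not counted. The absence of identical hairpins among members with reads was therefore set by the counting. It also enters the medians, as 47 of the members without reads had a distance of 0 edits. The counts of 0 in this stretch are of reads mapped to 1 place.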

How the data were processed

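MicroRNA sequencing was measured in 1 group of 2 libraries. The authors deposited raw read counts per miRNA gene, with mm10 per the labels and GENCODE M21 per the text filed with each table. The aligner, counter and trimming were not given in the sources used here. By their values, the headerless tables hold a column for both strands and a column for each strand, and the column on the strand of the gene was used. Library sizes exclude the rows for unmapped reads (33.8% in library 1 and 27.8% in library 2), for several mapped places (28.4% and 27.5%) and for no miRNA gene (9.57% and 9.53%).

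GENCODE M21 held all 2202 identifiers and gave their symbols, positions and hairpins. No member had an entry in the RefSeq miRNA sequences used here, although 72 of the 119 members had a RefSeq gene at the same coordinates. Python 3.11.15, scipy 1.17.1, edlib 1.3.9.post1 and R 4.3.3 with edgeR 4.0.16 and DESeq2 1.42.0 were used. With 1 group there is no coefficient for a quasi-likelihood test, so each of 411 genes with 10 or more reads summed had an exact binomial test with TMM effective library sizes, adjusted over all of them at 0.05, and tested on simulated data. Log2 ratios add 0.5 read to each count. Intervals and floors are at 95% and cover counting error only, and PCR copies, which were not marked by molecular identifiers, can make them too narrow. Reads with CAST variants were mapped to mm10, and the effect was not tested. Members with 10 or more reads summed are named with full values, and of outside genes up to 4 per subfamily by level, but all 10 were tied at 0 and all are named. Those with the most unique windows and no reads were singled out afterwards. Members and lists were chosen with earlier results of these data known. Alternatives were the unstranded column, other detection limits, other scalings, no filter, a fold limit and each library alone.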

Additional observations from a re-analysis of the deposited data

How the results depend on the processing

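No paired analysis was possible because the labels give a single group. The same 4 members passed the exact binomial test under DESeq2 size factors, library size alone, no filter and unstranded counts, and 2 of them did with a fold of 1.5 or more. That fold, tried with the other settings after seeing the data, left 3 with DESeq2 size factors, 1 with library size alone, 4 with no filter and 2 with unstranded counts. The share of miRNA reads held by the cluster, 0.0940%, was 0.115% with unstranded counts, in which other genes' ambiguous reads leave the total, and 0.0301% of all reads; each library alone gave 0.0845 to 0.103%. The summed log2 ratio of 0.38 was 0.29 with library size alone, 0.61 with all reads as library size and 0.28 without Mir467d. The sign turned for Mir669c with library size alone (log2 ratio -0.0543) and for Mir669o with no filter (log2 ratio 0.0663); neither passed the test, and the cause was not tested. Leaving out the filter shifted the median of all genes by 0.17, and of all genes called it put 61.7% higher in library 2, against 50.4% before. The number of detected members was 6 at a limit of 20 reads, 8 at 5 reads and 9 at 1 read. Windows of 18 and 22 bases, chosen after seeing the data, left 54 members with every window shared. At under 10 reads per library the depth does not fix a direction.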
